A study of Mus musculus with 2 samples.

Results

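The genes described here are those of the mouse mitochondrial ribosomal proteins, the proteins of the ribosome inside mitochondria, in alveolar macrophages with and without floxed Ssu72. They were chosen by gene symbol: every array feature that carried a single symbol beginning with Mrpl or Mrps and a number was taken, and a gene with several features was represented by the one with the highest mean over both arrays. This gave 71 genes of 22180 genes with a single-symbol feature, 43 of the large subunit (Mrpl) and 28 of the small subunit (Mrps) by name. A further 7 genes, Mrpl30, Mrpl33, Mrpl41, Mrpl43, Mrpl44, Mrpl53 and Mrps6, were measured only by features annotated to several genes and are not among the 71.

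The series held 2 gene-level Affymetrix arrays of alveolar macrophages, the phagocytes that live on the inner surface of the lung, which had been sorted from mice aged 8 to 10 weeks. The control array came from Lysm-Cre mice, and the other from Lysm-CreSsu72fl/fl mice. Both groups carried Lysm-Cre, which expresses Cre recombinase from the lysozyme 2 locus and so acts in myeloid cells generally rather than in alveolar macrophages alone. Ssu72 is a phosphatase of the RNA polymerase II C-terminal domain, and its alleles were flanked by recombination sites in the second group only. How many mice stand behind each array is not stated in the labels. A single array per genotype leaves neither replicate error nor any test: each difference is the value of Lysm-CreSsu72fl/fl minus control on the deposited log2 scale, and "higher" and "lower" describe these 2 arrays only. Fewer cells of a type and less RNA per cell cannot be told apart in such bulk samples.

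Mitochondria keep a small genome that encodes core subunits of the respiratory chain and ATP synthase, and a dedicated ribosome translates it. The ribosomal RNAs come from that genome, whereas all of the ribosome's proteins are encoded in the nucleus, made in the cytosol and imported. Many of these proteins descend from the bacterial ribosome and many others have no relative in it. The large subunit joins amino acids while the small subunit reads the mRNA. Alveolar macrophages rely on mitochondrial oxidation to clear the lipids of surfactant.

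No mitochondrial ribosomal protein gene differed by 1.5-fold in either direction, and the genes were nearly evenly divided around 0. Of the 71 genes, 57 were above the floor (4.65, the median of all values on both arrays) on at least 1 array and were compared; 46 were above it on both arrays and 11 on only 1, so that their differences, taken to the floor, are bounds on the size; 14 were below it on both arrays. Of the 57, none was at least 1.5-fold lower, where 1.37% of 13015 compared genes were, and none at least 1.5-fold higher, where 0.315% were. At shares this low, few or none would be found among 57 genes, so the absence of calls does not set the members apart. The lower genes numbered 33 and the higher ones 24, so 57.9% were lower beside 51.9% of all compared genes. The median difference was -0.030, against -0.0068 over all compared genes, and the members' differences had a robust SD, taken from the median absolute deviation, of 0.12, against 0.13. With the limit lowered to 0.32 on the log2 scale, 2 members were lower (6.23% of all compared genes) and none higher (2.06%). At 2-fold no member was lower (0.0845%) or higher (0.0307%).

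The difference between the arrays leaned lower with rising signal over the whole series, and few members lay where this was pronounced. Over all 33793 features the median difference was 0.0080 at mean levels from 4 to 5, -0.037 from 5 to 6 and -0.28 from 6 to 7. Of the compared members, 34 lay below level 5, 21 from 5 to 6 and 2 at 6 or over. Below level 5 the members' median was -0.017 (20 of 34 lower, 58.8%) beside 0.0080 (46.5% lower) for all compared genes there. From 5 to 6 it was -0.038 (12 of 21 lower, 57.1%) beside -0.031 (56.5% lower). Subtracting this trend, drawn as a smooth line through the features' differences, gives what is called the level-adjusted difference. By that measure 29 of 57 members were lower and 28 higher (median -0.0033), beside 46.3% lower and a median of 0.011 over all compared genes.

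**Figure D1:**
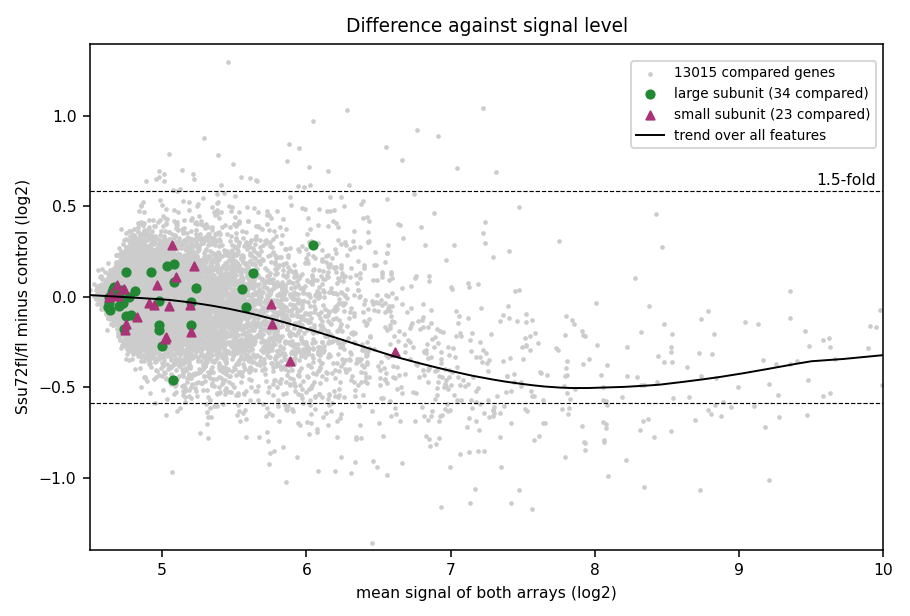
Difference of the Lysm-CreSsu72fl/fl array from the control array (log2, vertical axis) against the mean signal of both arrays (log2, horizontal axis, shown from 4.5 to 10); grey points are all compared genes, circles and triangles the 34 large and 23 small subunit genes compared, the curve is the trend over all features and dashed lines mark 1.5-fold. All 57 members lie between the dashed lines, most of them at levels below 6; the curve leaves 0 between levels 5 and 6 and is lower still from 6 to 7, and grey points outside the axes are not drawn.

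As the only available gauge of scatter, the robust SD of the differences among compared genes of similar signal (20 bins of level) is called the spread at that level. It was computed after values were set to the floor, which narrows it at low levels. Without the floor, the robust SD of all features at levels from 4 to 5 was 0.076. The spread mixes measurement error with real differences between genes and is no error between animals. Of the 57 members, 19 differed by more than 1 spread, 33.3% beside 33.8% of all compared genes. Of these, 14 were lower (24.6% of members; 18.9% of all compared genes) and 5 higher (8.77%; 14.8%). Genes under the floor on 1 array are counted here by their bounds. A single member, Mrpl35, lay beyond 2 spreads, where 6.66% of all compared genes did.

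**Figure D2:**
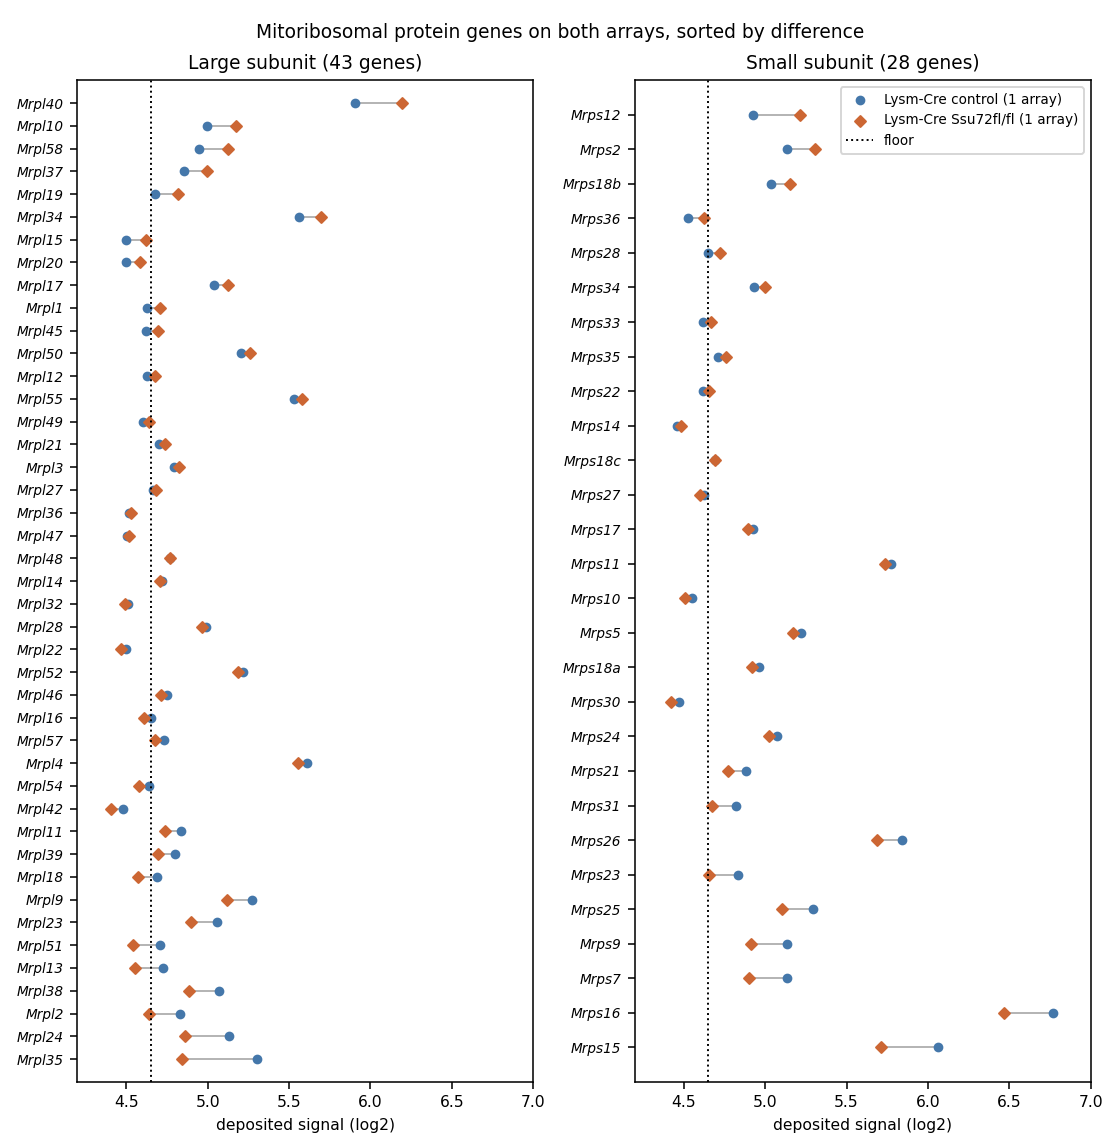
Deposited signal (log2, horizontal axis) of each of the 71 genes on the control array (circles) and the Lysm-CreSsu72fl/fl array (diamonds), by subunit and sorted by difference; the dotted line is the floor at 4.65. Mrpl40 and Mrps12 head the panels with higher values on the Lysm-CreSsu72fl/fl array, Mrpl35 and Mrps15 end them with lower ones, and the symbols of most genes between touch or nearly touch.

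Large subunit genes as a group showed a median of -0.0066. Of 43 genes, 34 were compared, 19 lower and 15 higher, with a robust SD of 0.088. The lowest was Mrpl35, a relative of bacterial L35 in the body of the subunit. Its control value was 5.30 and its Lysm-CreSsu72fl/fl value 4.84, a difference of -0.46 (1.38-fold lower) against a spread of 0.16, and of -0.44 when level-adjusted. This was the largest deposited difference of any member, in either direction; when level-adjusted or after quantile normalization, that of Mrpl40 was larger in size. Mrpl24, a protein at the mouth of the tunnel through which the new chain leaves, read 5.13 and 4.86 (-0.27, spread 0.15). Mrpl38, in the central protuberance that faces the small subunit, read 5.07 and 4.89 (-0.18), and Mrpl23, also at the tunnel exit, 5.06 and 4.90 (-0.16). Of the genes above the floor on both arrays, these 4 were lower by more than the spread at their level. Mrpl2, Mrpl13, Mrpl51 and Mrpl18 were so by their bounds (-0.18, -0.072, -0.055 and -0.037). Their spreads (0.099, 0.051, 0.034 and 0.034) are narrowed by the floor. The bounds of Mrpl13, Mrpl51 and Mrpl18 lie inside the 0.076 found without the floor. Mrpl9 (5.27 and 5.12, -0.15 against a spread of 0.19) and the mitochondria-specific Mrpl39 (4.80 and 4.69, -0.11 against 0.11) followed with both values over the floor and stayed inside the spread.

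At the other end stood Mrpl40, a mitochondria-specific protein of the central protuberance. Its control value was 5.91 and its Lysm-CreSsu72fl/fl value 6.19, a difference of 0.29 (1.22-fold higher) against a spread of 0.26. Since genes of its level tended to be lower, its level-adjusted difference was larger, 0.48. Mrpl10, which anchors the stalk that recruits translation factors, read 4.996 and 5.18 (0.18, spread 0.16). Mrpl58, a peptidyl-tRNA hydrolase that became a fixed part of the ribosome, read 4.95 and 5.12 (0.17, spread 0.15). Mrpl37 (4.86 and 4.99, 0.14), Mrpl19 (4.68 and 4.82, 0.14) and Mrpl34 (5.56 and 5.70, 0.13) completed the 6 highest. Mrpl37 and Mrpl34 did not exceed the spread at their level (0.14 and 0.23), whereas the other members of the 6 did. Among the brightest features of the subunit, Mrpl55 read 5.53 and 5.58 (0.046) and Mrpl50 5.21 and 5.26 (0.050), both far inside the spread.

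Genes whose products meet at a functional site of the large subunit were found on both sides of 0. In the values that follow, a bound stands for a gene under the floor on 1 array. The catalytic core, where peptide bonds form, had 3 of 5 genes lower and a median of -0.0005. Mrpl2 read 4.83 and 4.64 (a bound of -0.18), and Mrpl16 had a bound of -0.0005. Mrpl4 was at -0.057, Mrpl27 at 0.019 and Mrpl3 at 0.032. Mrpl4 turned to 0.029 when level-adjusted. Of the stalk genes, Mrpl10 was at 0.18, Mrpl11, at its base, at -0.098, and Mrpl12, whose copies form the stalk itself, at a bound of 0.025. Mrpl54 was below the floor on both arrays. Of 6 central protuberance genes 4 were lower and 2 higher. They held both Mrpl40 (0.29) and Mrpl58 (0.17) and, on the lower side, Mrpl38 (-0.18), Mrpl18 (a bound of -0.037), Mrpl46 (-0.035) and Mrpl48 (-0.0017, or 0.00089 when level-adjusted). At the exit site, Mrpl24 and Mrpl23 were lower, Mrpl17 (0.083) and Mrpl45 (a bound of 0.042), which ties the ribosome to the inner membrane, were higher, and Mrpl22 and Mrpl47 were below the floor on both arrays.

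Small subunit genes had a median of -0.046, with 14 of 23 compared genes lower and 9 higher. Their robust SD, 0.16, was larger than that of the large subunit genes. The 2 subunit medians differed by 0.039, and by 0.016 when level-adjusted; with 1 array per genotype the difference was not tested. Lowest was Mrps15, a relative of bacterial S15, at 6.06 and 5.71 (-0.35, 1.28-fold lower, against a spread of 0.26; level-adjusted -0.20). Mrps16 read 6.77 and 6.46 (-0.30 against a spread of 0.33). This value followed the trend of its level, and its direction turned with the scaling: 0.026 when level-adjusted and 0.0059 after quantile normalization.

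Mrps7 and Mrps9, both proteins of the head of the subunit, gave closely similar values. Mrps7 read 5.13 and 4.90 (-0.23) and Mrps9 5.14 and 4.91 (-0.22), each against a spread of 0.15. Mrps25 (5.30 and 5.10, -0.19) and Mrps23 (4.83 and 4.65, -0.18), both without a bacterial ribosomal relative, were likewise lower by more than the spread. Their ratios to the spread were -1.02 and -1.84, against spreads of 0.19 and 0.099. The second value of Mrps23 was barely above the floor, where the spread is narrow. Mrps31 (4.82 and 4.67, -0.15 against 0.11) was the last small subunit gene lower by more than the spread. Mrps26, at 5.84 and 5.69 (-0.15), became -0.029 when level-adjusted, and Mrps11, at 5.77 and 5.74 (-0.038), became 0.082.

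The highest small subunit gene was Mrps12, the relative of bacterial S12 at the site where the codon is read. Its control value was 4.93 and its Lysm-CreSsu72fl/fl value 5.21 (0.29, 1.22-fold higher, against a spread of 0.16; level-adjusted 0.31), and it was the only small subunit gene higher by more than the spread. Mrps2 followed at 5.14 and 5.31 (0.17, spread 0.19). The others were closer together: Mrps18b at 0.11, Mrps34 at 0.068, Mrps35 at 0.045 and Mrps18c at 0.0032. The last was at -0.0086 after median centring and -0.0082 after quantile normalization.

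The 3 Mrps18 genes are paralogs, descended from 1 ancestral S18 gene. Only the product of Mrps18c keeps the S18 position, that of Mrps18b sits elsewhere in the small subunit, and that of Mrps18a is built into the large subunit despite its name. Mrps18a read 4.96 and 4.92 (-0.047), Mrps18b 5.04 and 5.15 (0.11) and Mrps18c 4.69 and 4.69 (0.0032), none beyond the spread. Mrps30, a small subunit gene by name whose product also lies in the large subunit, was below the floor on both arrays. Moving Mrps18a and Mrps30 to the large subunit left the medians at -0.012 and -0.042.

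Genes with and without a relative among bacterial ribosomal proteins had medians close together. Of 37 compared genes with one, 22 were lower, with a median of -0.032 (level-adjusted -0.0043). Of 20 compared genes without one, 11 were lower, with a median of -0.016 (level-adjusted -0.0012). The lowest value of the first group was that of Mrpl35 and its highest that of Mrps12; for the second group these were Mrps25 and Mrpl40.

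The 14 genes under the floor on both arrays, for which no difference is given, were Mrpl15, Mrpl20, Mrpl22, Mrpl32, Mrpl36, Mrpl42, Mrpl47, Mrpl49, Mrpl54, Mrps10, Mrps14, Mrps27, Mrps30 and Mrps36. The product of the last is now known as part of the 2-oxoglutarate dehydrogenase complex rather than of the ribosome. Genes under the floor on 1 array gave small bounds, the largest after Mrpl2 being Mrpl13 (-0.072) and Mrps28 (0.068). For 9 members a further feature showed how far features of 1 gene can differ. Of the 9 genes, 5 had both features above the floor on at least 1 array, and in 4 of the 5 both pointed the same way. The 2 features of Mrps5 gave -0.046 and -0.037, those of Mrpl10 0.18 and 0.043, and those of Mrps16 -0.30 and, before the floor, -0.12 (4.72 and 4.60, the second value under the floor). The features of Mrps18b had opposite signs, 0.11 and -0.044, and Mrpl12 gave 0.049 and 0.32 before the floor, so that its feature with the lower mean showed the larger difference. The gap between the differences of the 2 features had an SD of 0.19 over these 5 genes and reached 0.27, a size that most members' differences do not reach.

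The promoters of these genes carry the letters of some known factors more often than promoters in general. RefSeq promoters (GRCm38.p6) from 250 bases before to 50 after a start site were found for 62 of the 71 genes, 68 windows in all, and were compared with 21263 windows of protein-coding genes; each motif was searched on both strands, and the ETS and YY1 letters can overlap by sharing AAG. The ETS motif CCGGAAG, bound by factors such as GABP that act on nuclear genes for mitochondria, was in 33.8% of the members' windows and 11.6% of all. The YY1 motif AAGATGG was in 19.1% and 6.24%, and GCATGCG, the core of the NRF1 motif, in 10.3% and 4.44%. CCAAT was in 39.7% and 38.2%, and TATAAA in 7.35% and 12.6%. The members' windows were also richer in CpG, with a median of 21 per window against 13 over all windows, and the ETS and NRF1 letters contain CG whereas the others do not; the part of CpG content in these shares was not tested. In 52 stretches of sequence before a start, ended at the nearest other gene, 10 held the ETS letters, 6 the NRF1 core and 2 the YY1 letters. Genes with several windows, genes on a chromosome that was left out and very short stretches are not among the 52. A match in a window need not lie in such a stretch, since windows include 50 bases after the start and stretches stop at a neighbouring gene. The counts in stretches and the shares of windows thus cover unlike sets of sequence. A match is only a run of letters and not a bound site, and the shares were not tested.

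Members with and without an ETS match can be set beside each other in these arrays. Of 21 compared members with one, 10 were lower, with a median of 0.00042; of 29 without one, 20 were lower, with a median of -0.038. For CCAAT, 13 of 17 members with a match were lower (median -0.098) and 17 of 33 without (-0.0005). For YY1, 6 of 8 with a match were lower (-0.043) and 24 of 42 without (-0.017). For the NRF1 core, 2 of 5 with a match were lower (0.083) and 28 of 45 without (-0.032). For TATAAA, 5 of 5 with a match were lower (-0.032) and 25 of 45 without (-0.030). None of these differences between members with and without a match was tested.

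The stretches below show where the ETS letters lie in 4 members, and the short regions shared with a gene on the opposite strand. Each is the sequence before the start site, at most 250 bases and ended at the nearest other gene, written 5′ to 3′ in the direction of the member. Capitals mark matches to the ETS, YY1 and NRF1 letters and to CCAAT, on either strand. Mrpl52 lies at chr14:54426659-54426908, plus strand, and holds an ETS match that begins 47 bases before the start and a YY1 match at 91. Mrpl58 (chr11:115403502-115403751, plus strand), Mrpl34 (chr8:71464708-71464925, plus strand) and Mrps18a (chr17:46110754-46111003, plus strand) have their ETS match at 17, 37 and 26 bases before the start, and Mrps18a also a CCAAT match at 196. The Mrps12 stretch (chr7:28741822-28741956, minus strand) ends at Sars2 and has 3 CCAAT matches, at 108, 68 and 19. The 41 bases between Mrpl46 and Mrps11 (chr7:78783090-78783130, plus strand) hold none of these letters.
Mrpl52: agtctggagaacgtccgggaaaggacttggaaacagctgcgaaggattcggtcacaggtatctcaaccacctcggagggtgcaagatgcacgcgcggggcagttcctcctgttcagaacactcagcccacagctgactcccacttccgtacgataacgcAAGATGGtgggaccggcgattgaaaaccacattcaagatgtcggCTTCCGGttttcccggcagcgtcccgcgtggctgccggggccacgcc
Mrpl58: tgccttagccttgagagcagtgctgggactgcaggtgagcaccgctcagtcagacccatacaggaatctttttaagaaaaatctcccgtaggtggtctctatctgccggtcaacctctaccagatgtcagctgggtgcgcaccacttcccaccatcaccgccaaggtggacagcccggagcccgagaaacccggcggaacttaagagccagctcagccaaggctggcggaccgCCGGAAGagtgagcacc
Mrpl34: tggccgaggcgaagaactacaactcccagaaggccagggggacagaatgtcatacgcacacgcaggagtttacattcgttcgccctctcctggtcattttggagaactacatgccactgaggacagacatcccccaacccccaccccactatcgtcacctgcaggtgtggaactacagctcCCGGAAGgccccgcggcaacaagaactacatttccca
Mrps18a: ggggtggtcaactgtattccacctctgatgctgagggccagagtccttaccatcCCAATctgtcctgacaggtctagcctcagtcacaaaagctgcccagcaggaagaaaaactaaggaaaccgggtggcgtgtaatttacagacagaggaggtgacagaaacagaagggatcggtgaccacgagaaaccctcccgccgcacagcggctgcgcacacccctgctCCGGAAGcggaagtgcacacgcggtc
Mrps12 to Sars2: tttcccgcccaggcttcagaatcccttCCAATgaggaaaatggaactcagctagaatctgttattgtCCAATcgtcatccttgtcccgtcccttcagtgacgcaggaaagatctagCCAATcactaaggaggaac
Mrpl46 to Mrps11: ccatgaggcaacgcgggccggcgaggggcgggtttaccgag

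Of the members shown, Mrpl58 (0.17), Mrpl34 (0.13) and Mrps12 (0.29) were higher and Mrps18a (-0.047) lower. Mrpl52 was at -0.030, or 0.0011 when level-adjusted. The stretches with an ETS match were picked by their genes' differences, from both ends of the order. The signs of these values therefore show nothing about ETS matches.

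Sharing a start region with a gene on the opposite strand was common among the members. Of the 62 genes with a RefSeq promoter, 21 (33.9%) had a protein-coding neighbour whose start lay head to head within 1000 bases, beside 8.48% of 17492 protein-coding genes. Both genes were above the floor on both arrays in 9 pairs, and in 6 of the 9 they had differences of the same sign; over all 216 such pairs of protein-coding genes the share was 50.5%. Mrps12 is paired with Sars2, which encodes the mitochondrial enzyme that loads serine onto its tRNA. Sars2 read 4.999 and 5.08 (0.076), in the direction of Mrps12 (0.29) but smaller. Mrpl40 (0.29) faces the histone chaperone gene Hira, which read 4.79 and 4.75 (-0.042). Mrpl46 and Mrps11, 42 bases apart and the only pair made of 2 members, were nearly equal at -0.035 and -0.038, although Mrps11 turned to 0.082 when level-adjusted. Mrps18b (0.11) and Ppp1r10 (-0.16), a regulatory subunit of a nuclear phosphatase, had opposite signs.

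**Figure D3:**
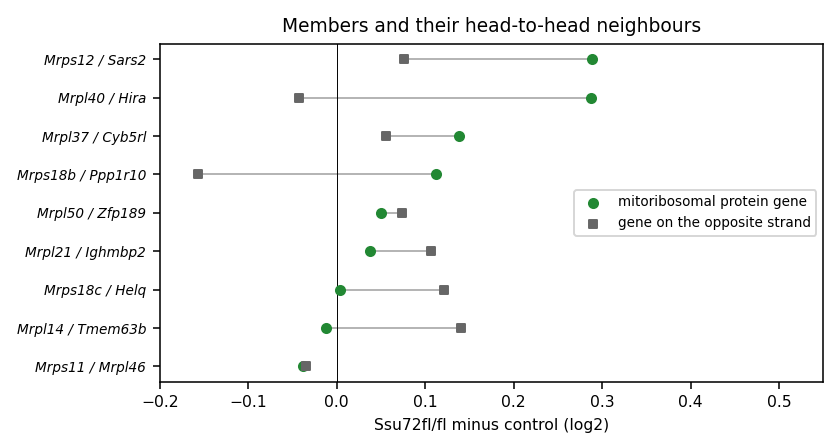
Difference of the Lysm-CreSsu72fl/fl array from the control array (log2, horizontal axis) for 9 head-to-head pairs above the floor on both arrays: circles are the member named first, squares the gene on the opposite strand, and lines join a pair (in the last row both genes are members). In 6 of the 9 rows both symbols lie on the same side of 0; the widest gap is that of Mrpl40 and Hira.

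Other parts of the mitochondrial translation apparatus had no compared gene past 1.5-fold in either direction. In the whole series, 1.37% passed this limit on the lower side and 0.315% on the higher side. With such shares few or none would be found in lists this short, so the lack of calls does not set these parts apart. Mitochondrial ribosomal proteins named otherwise were Dap3 (4.79 and 4.73, -0.061), a GTP-binding protein of the small subunit, Ptcd3 (9.74 and 9.51, -0.23, or 0.12 when level-adjusted) and Gadd45gip1 (4.86 and 4.96, 0.10). Of 14 measured translation factors only 5 were compared, 4 higher and 1 lower, with a median of 0.068. Among them Tufm, the elongation factor that brings tRNA to the ribosome, read 5.30 and 5.37 (0.068), and Mtfmt, which formylates the initiator tRNA, 4.96 and 5.15 (0.19). Taco1, an activator of Cox1 translation, had a bound of 0.27, and the recycling factor gene Mrrf a bound of -0.032.

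Of 26 genes for assembly of the mitoribosome and modification of its RNA, 18 were compared, 8 of them lower and 10 higher (median 0.031). They ran from Rbfa (5.34 and 5.11, -0.23), a factor in small subunit maturation, and Mterf4 (-0.13) to Ngrn (0.15) and the rRNA methyltransferase gene Mrm1 (4.75 and 4.91, 0.16). Of 11 compared mitochondrial aminoacyl-tRNA synthetases, 5 were lower and 6 higher (median 0.035), from Nars2 (-0.14) and Pars2 (a bound of -0.092) to Aars2 (0.091) and Fars2 (0.14). Of 7 compared genes for mitochondrial transcription and RNA processing, 6 were lower and 1 higher (median -0.024), with Tbrg4 (-0.11) and Supv3l1 (-0.11) lowest and Mtpap (0.019) highest. Regulators of nuclear genes for mitochondria had 6 of 9 genes lower (median -0.043), from the coactivator genes Hcfc1 (5.46 and 5.23, -0.23) and Ppargc1b (5.02 and 4.87, -0.16) to the nuclear receptor gene Esrra (0.13) and Yy1 (5.90 and 6.10, 0.19). Gabpa was below the floor on both arrays and Nrf1 on 1.

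The gene groups most like the members in function, set beside them, held larger differences on the deposited scale. Of 71 compared nuclear-encoded subunits of the respiratory chain and ATP synthase, 46 were lower, with a median of -0.043, and 5 were at least 1.5-fold lower. They ran from Uqcrb (6.45 and 5.70, -0.75) and Atp5g2 (-0.71) to Ndufa12 (0.25) and Ndufa11 (0.30). Of 54 compared cytosolic ribosomal protein genes, 39 were lower, with a median of -0.25, and 8 were at least 1.5-fold lower, Rps24 (-0.78) most. Signal differed between these groups: 31 of the 54 cytosolic genes and 10 of the 71 respiratory genes had a mean level of 6 or over, but only 2 members. Of all 856 compared genes at that level, 659 were lower and 129 at least 1.5-fold lower. Past 1.5-fold there were 8 of the 31 cytosolic and 3 of the 10 respiratory genes. From level 5 to 6, 2 of 32 respiratory genes were, beside 48 of 4463 compared genes. Level-adjusted medians were -0.015 for the respiratory genes and -0.0030 for the cytosolic ribosomal genes, beside -0.0033 for the members. Below level 5 the deposited medians were 0.0059 (29 respiratory genes), 0.10 (8 cytosolic ribosomal genes) and -0.017 (34 members). From level 5 to 6 they were -0.097 (32 respiratory genes), 0.036 (15 cytosolic ribosomal genes) and -0.038 (21 members). None of these differences between groups was tested.

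**Figure D4:**
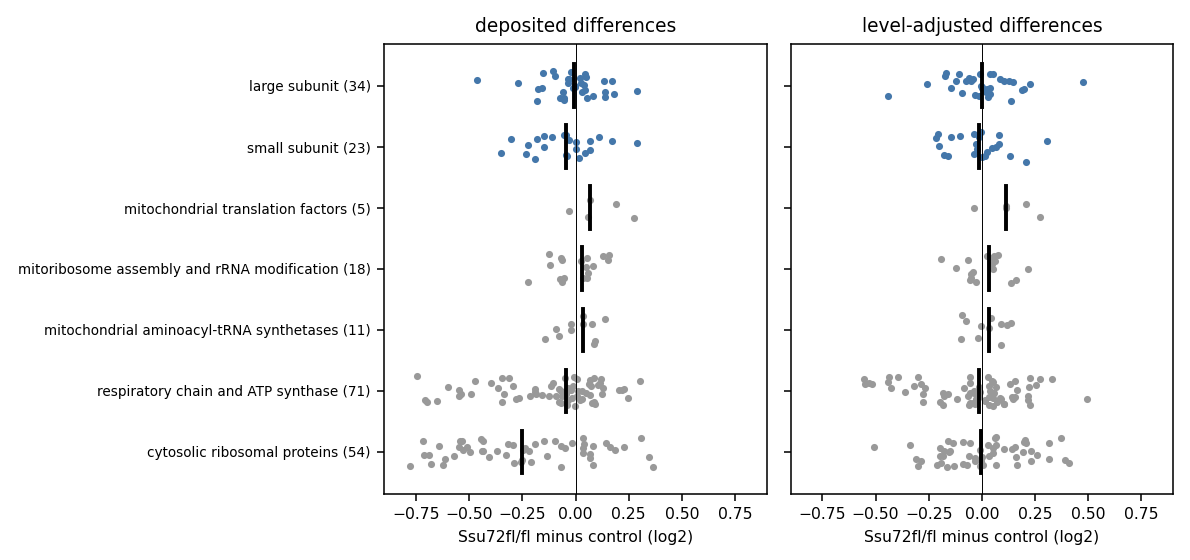
Differences of Lysm-CreSsu72fl/fl from control (log2, horizontal axis) for each compared gene (points, spread vertically for visibility) of 7 gene groups, with the number compared in parentheses and a bar at the median; left as deposited, right level-adjusted. The large and small subunit genes (top rows) lie around 0 in both panels, whereas the median of the cytosolic ribosomal protein genes moves from -0.25 to -0.0030.

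All 10 measured mRNAs of the mitochondrial genome, the templates that this ribosome translates, were lower on the Lysm-CreSsu72fl/fl array. Their median was -0.42 (level-adjusted -0.21, 10 of 10 lower), and 2 were at least 1.5-fold lower. Of 856 compared genes at level 6 or over, 659 were lower (median -0.28) and 129 were at least 1.5-fold lower. When level-adjusted, 43.8% of those 856 genes were lower. The 10 mRNAs ran from COX1, at 12.80 and 12.61 (-0.19), to ND3, at 12.02 and 11.31 (-0.71). These RNAs are transcribed together as long precursors from each strand, so their values are not independent. Few features in the series lie at such levels, and the adjusted values rest on them.

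The targeted gene and the cell type were checked once. Ssu72 had a control value of 4.86 and a Lysm-CreSsu72fl/fl value of 4.998 (0.14 against a spread of 0.14). It was not lower in the sample labelled with the floxed alleles, and whether its probes lie in the deleted part is not known here, so every direction above rests on the labels. All 11 measured alveolar macrophage markers were above the floor on both arrays, among them Siglecf (5.18 and 5.09), Marco (6.28 and 5.78) and Chil3 (9.42 and 9.30); 10 of the 11 were lower (median -0.25, level-adjusted -0.0090). Markers of interstitial macrophages were lower in 7 of 8 (level-adjusted median -0.31; summed log2 signal 48.2 and 45.1), those of monocytes in 5 of 5 (-0.21; 28.4 and 26.7), those of endothelium in 6 of 6 (-0.12; 30.9 and 29.8), those of neutrophils in 5 of 5 (-0.056; 29.0 and 28.7), those of alveolar type 2 epithelium in 6 of 8 (-0.035; 46.1 and 45.0) and those of fibroblasts in 3 of 4 (-0.066; 29.8 and 29.3). T cell markers were lower in 1 of 3 (0.052; 18.8 and 19.1) and B cell markers in 2 of 4 (0.032; 26.9 and 26.5). Below the floor on both arrays were Cxcr2, Cd3e, Ms4a1, Lum and Pdgfra; the erythroid markers had no single-symbol feature. Of the type 2 epithelial markers, Sftpc read 8.71 and 8.35, above Siglecf and Marco and below Chil3 on both arrays. Whether cells other than alveolar macrophages take part in the members' values was not tested.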

How the data were processed

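Expression data of sorted alveolar macrophages were used: 1 array of Lysm-Cre mice and 1 of Lysm-CreSsu72fl/fl mice, made from 6 ug of total RNA each per the labels' protocols. The deposited values are 1 log2 expression value per feature; values between 4.23 and 13.5 point to that scale, which no label states. MAS5 is named in the submitters' processing notes, but not for which step; background correction, normalization and centring stay unknown. The column medians were 4.65 and 4.66. Precision is limited by having 1 array per genotype.

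Of 33793 features, 23521 carried 1 symbol, 1814 several and 8458 none; 23328 were matched by Entrez identifier to RefSeq (GRCm38.p6). Values under the floor (50th percentile) were set to it. The trend was a lowess (fraction 0.3) on medians of level bins 0.1 wide with at least 10 features. Alternatives were median centring, quantile normalization, trend removal, floors at the 25th and 75th percentiles or none, the mean of a gene's features, annotation symbols, lower and higher fold limits, and subunits by structure. The steps were tested on simulated data, with shifts larger than any member's difference and only in features of high signal. That test does not cover differences as small as the members', most of which lie at lower levels. Members, lists and motifs were chosen with earlier results of these data known; the mitochondrial genome list was respelled, and 1 symbol updated, after the files were read. Genes named are the 6 lowest and 6 highest per subunit above the floor on both arrays, the 5 of highest signal in each, the structural groups, the 3 largest bounds and up to 2 at each end of other lists; Mrps31, Tufm, Gabpa, Nrf1 and genes with a further feature or a head-to-head neighbour were added after their values were seen. Promoters shown were chosen for a head-to-head neighbour or for an ETS match. Those with an ETS match belong to members above the floor on both arrays, taken from both ends of each subunit's order of difference. The stretch of Mrpl3 (0.032), with an ETS match 19 bases before the start, also met this rule and is not printed. Python 3.11.15, pandas 2.3.3 and statsmodels 0.14.6 were used.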

Additional observations from a re-analysis of the deposited data

How the results depend on the processing

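The members' median difference (-0.030) lay between -0.042 with median centring and -0.0033 with trend removal, below 0 in all 8 alternatives. Over all compared genes the median moved too: -0.017 with median centring and 0.011 with trend removal. With the floor at the 75th percentile it was -0.030, beside -0.038 for the members. With median centring 60.7% of members and 55.6% of all compared genes were lower. With trend removal these shares were 50.9% and 46.3%. No member was past 1.5-fold in either direction under any of the centring, normalization, trend, floor, feature or symbol alternatives. With the limit at 0.32 on the log2 scale, 2 members were lower, and at 2-fold none. The large subunit median (-0.0066) changed sign with trend removal (0.00098) and with the floor at the 75th percentile (0.0029), where 29 members were compared; in the latter case the other median of the pair was -0.053. The small subunit median kept its sign in all 9 alternatives, and large minus small stayed between 0.016 and 0.056. Over all compared genes the count past 1.5-fold turned from 178 lower and 41 higher to 43 and 98 after quantile normalization and 39 and 96 with trend removal. Of the 57 compared members, 50 kept their sign in all 3 scalings; Mrps16, Mrpl4, Mrps11, Mrpl52, Mrpl48, Mrps22 and Mrps18c did not. No paired analysis was possible because each genotype had 1 array. Most members lie within 1 log2 unit of the floor, and with 1 array per genotype a difference of the size seen here cannot be separated from array error.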
